A study of Sus scrofa with 16 samples.

Results

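The 37 genes of the porcine mitochondrial genome were followed in 2 embryonic stem cell lines over 4 days of differentiation to midbrain dopaminergic neurons. They are the 24 rows of the expression table that carry no gene symbol, which their descriptions name as mitochondrial ribosomal or transfer RNAs, and the 13 mitochondrial protein genes. Together they make up 37 of 28232 genes in the table, and no measured value was used to choose them. There are 13 protein genes, 2 ribosomal RNAs and 22 transfer RNAs, and all 37 were among the 18528 genes with enough counts to be tested.

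Bulk poly-A RNA was sequenced from PA_3_pESC_FIW, a line from a parthenogenetic embryo, and from IVF_1_pESC_FIW, a line from an in vitro fertilised embryo. Each line was sampled undifferentiated at day 0 and in monolayer culture at days 16, 28 and 45, which the labels call midbrain dopaminergic neurons, with 2 libraries for each line and day and 16 libraries in all. The paper treats day 16 cells as ventral midbrain progenitors, with terminal differentiation from that day. Undifferentiated cells were kept in FIW medium, which holds FGF2. Both lines then received the same agents: SB431542 and Noggin together with SHH-C24II and CHIR99021 from day 0, followed by FGF8. After a first replating they received FGF8, BDNF and ascorbic acid. From day 16, after another replating, they received BDNF, GDNF, ascorbic acid, db-cAMP and DAPT. Each embryo origin is represented by 1 line, so origin and line cannot be told apart. The series calls the libraries biological duplicates and does not say whether they came from separate differentiations, so p-values measure the spread between these libraries.

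Library totals ranged from 39247693 to 52165867 counts. Markers of pluripotent cells summed to 71.7 to 222 CPM (counts scaled to a common library size by TMM) over the 12 libraries of days 16 to 45, against 2002 to 2201 CPM over the 4 libraries of day 0. Pan-neuronal markers summed to 1184 to 3932 CPM at days 16 to 45, against 194 to 417 CPM at day 0, and dopaminergic markers to 116 to 348 CPM, against 21.7 to 47.3 CPM. TH and PITX3 were at 0 in both lines at day 0, and SLC18A2 was at 0 in the PA line at day 16. Vascular leptomeningeal and fibroblast markers reached 696 to 1711 CPM in the PA line and 842 to 1208 CPM in the IVF line at day 45. Replicates differed by more than counting noise in each group, by the median over genes with enough counts in the pair. Over all such genes the PA day 45 pair differed most. Over such members the IVF day 45 pair differed most, with 31 members compared there and 37 in the PA day 45 pair.

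Mitochondrial DNA is copied and transcribed inside the organelle. Its circular genome is read from both strands as long precursors by the RNA polymerase POLRMT with the factors TFAM and TFB2M. Most protein genes and ribosomal RNAs are flanked by transfer RNAs, and cutting the transfer RNAs out releases the RNAs between them. The protein genes encode core subunits of respiratory complexes I (ND genes), III (CYTB) and IV (COX genes) and of the ATP synthase (ATP6, ATP8), all other subunits being made from nuclear genes. The ribosomal RNAs form the ribosome that translates these messages, and the transfer RNAs serve it.

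On the reference mitochondrial sequence (Sscrofa11.1, 16613 bases, from a Landrace pig) 28 members lie on the plus strand and 9, ND6 and 8 transfer RNAs, on the minus strand. All members are exonic by the annotation and none has an intron. Several genes overlap, so that a read from the shared bases belongs to both. ATP8 and ATP6 share 43 bases (MT:9120-9162), shown in capitals in the stretch MT:9095-9187 because the values of ATP8 and ATP6 are set side by side. tRNA-Ser(UCN) lies on the minus strand next to the end of the plus-strand gene COX1, and its bases are in capitals in the stretch MT:8026-8129, shown because its counts are set beside those of COX1.
ATP8 and ATP6 overlap, plus strand: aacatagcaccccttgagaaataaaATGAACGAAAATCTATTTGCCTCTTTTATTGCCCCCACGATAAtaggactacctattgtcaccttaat
COX1 end and tRNA-Ser(UCN), plus strand: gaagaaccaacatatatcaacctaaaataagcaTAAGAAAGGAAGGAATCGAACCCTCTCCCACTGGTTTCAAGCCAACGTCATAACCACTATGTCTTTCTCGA

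Of the transfer RNAs, 9 had far more counts in the PA line than in the IVF line at each day, and their sequences are given here with the anticodon in capitals, 5′ to 3′ on the strand of the gene, from the reference genome.
tRNA-Val, MT:2206-2273, plus strand: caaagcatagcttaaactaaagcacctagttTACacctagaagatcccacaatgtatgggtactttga
tRNA-Trp, MT:6129-6196, plus strand: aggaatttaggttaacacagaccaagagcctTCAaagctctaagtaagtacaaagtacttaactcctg
tRNA-Ala, MT:6203-6270, minus strand: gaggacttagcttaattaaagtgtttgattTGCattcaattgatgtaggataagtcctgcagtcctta
tRNA-Asn, MT:6272-6346, minus strand: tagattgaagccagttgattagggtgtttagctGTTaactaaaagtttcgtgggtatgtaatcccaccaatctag
tRNA-Cys, MT:6379-6444, minus strand: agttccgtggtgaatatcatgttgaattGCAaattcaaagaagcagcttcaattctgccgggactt
tRNA-Tyr, MT:6444-6509, minus strand: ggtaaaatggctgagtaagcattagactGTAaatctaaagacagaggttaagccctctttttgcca
tRNA-Lys, MT:8891-8957, plus strand: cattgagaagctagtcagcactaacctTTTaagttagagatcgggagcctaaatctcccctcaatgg
tRNA-Thr, MT:16482-16549, plus strand: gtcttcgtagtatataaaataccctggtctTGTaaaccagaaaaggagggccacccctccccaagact
tRNA-Pro, MT:16550-16613, minus strand: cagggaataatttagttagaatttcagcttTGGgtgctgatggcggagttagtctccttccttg
For comparison, tRNA-Ser(UCN) and tRNA-Leu(UUR), the transfer RNA rows with the most counts, and tRNA-Gln did not show that difference.
tRNA-Ser(UCN), MT:8059-8129, minus strand: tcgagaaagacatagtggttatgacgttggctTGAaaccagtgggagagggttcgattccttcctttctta
tRNA-Leu(UUR), MT:3845-3919, plus strand: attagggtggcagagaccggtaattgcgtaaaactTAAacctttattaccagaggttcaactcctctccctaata
tRNA-Gln, MT:4943-5015, minus strand: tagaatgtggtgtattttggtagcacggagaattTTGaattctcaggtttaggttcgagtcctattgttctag
These genes are 59 to 75 bases long, shorter than the 100-base reads. A read aligned over its full length in such a row also covers bases of its neighbours, while reads trimmed before alignment can be shorter. Whether a read came from a free transfer RNA or from a longer precursor was not measured. Selection for poly-A tails further limits what the rows of ribosomal and transfer RNAs hold.

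Per length, COX1 and COX3, subunits of complex IV, were the most abundant protein genes. COX1 had a median of 27175 TPM over the 16 libraries (22031 to 55329) and COX3 a median of 21472 TPM (14786 to 27178), and the 2 held ranks 1 and 2 in each library. ATP6 followed with a median of 12690.3 TPM and COX2 with 11592 TPM, and their ranges overlapped. ND5 (5799 TPM) and ND4 (5293 TPM) formed the next group, again with overlapping ranges. ND3 and ND6 were lowest, with medians of 1672 and 1176 TPM. ATP8 had the widest span of ranks, between 5 and 13 of 13. Its median of 4584 TPM pools 2 lines that lay apart. ATP8 had 1126 to 3048 TPM in the IVF libraries and 6120 to 19081 TPM in the PA libraries.

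Together the 37 members took 3.58% to 8.28% of a library's counts. In the PA line this share was 5.76% and 5.37% at day 0, 5.42% and 5.98% at day 16, 4.13% and 3.91% at day 28 and 7.86% and 6.15% at day 45. In the IVF line it was 4.88% and 4.92% at day 0, 3.61% and 3.75% at day 16, 3.58% and 3.84% at day 28 and 8.28% and 6.18% at day 45. The day 45 libraries lay above all others in both lines, and the lines were furthest apart at day 16. In these bulk samples fewer cells of a type and less RNA per cell cannot be told apart.

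Day 45 minus day 28 gave 3.25 percentage points as the mean of the PA line (2.98) and the IVF line (3.52), with a two-sided exact permutation p = 0.0556, the smallest that the 36 arrangements allow. Day 16 minus day 0 gave -0.539 percentage points (exact p = 0.278), with 0.137 in the PA line and -1.22 in the IVF line. Day 28 minus day 16 gave -0.828 percentage points (exact p = 0.222), with -1.68 in the PA line and 0.0264 in the IVF line, and turned to 0.111 percentage points as a share of TPM (exact p = 0.889). PA minus IVF averaged 0.693 percentage points over the 4 days and did not pass 0.05 (two-sided exact permutation p = 0.0833 over 1296 arrangements). Within days 0, 16, 28 and 45 it was 0.666, 2.02, 0.310 and -0.222. As a share of TPM it was 2.14 percentage points (exact p = 0.0108). That share includes ND1 and ATP8, for which RNA level and the alignment of each line's reads cannot be told apart. At day 45 ATP8 had 19081 and 16657 TPM in the PA line and 1860 and 2094 TPM in the IVF line. The TPM difference without these members was not computed. Leaving out IVF day 45 replicate 1 gave 0.956 percentage points of counts, the highest of the values without 1 library. Leaving out IVF day 45 replicate 2 gave 0.431, the lowest, and leaving out PA day 45 replicate 1 gave 0.479.

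**Figure D1:**
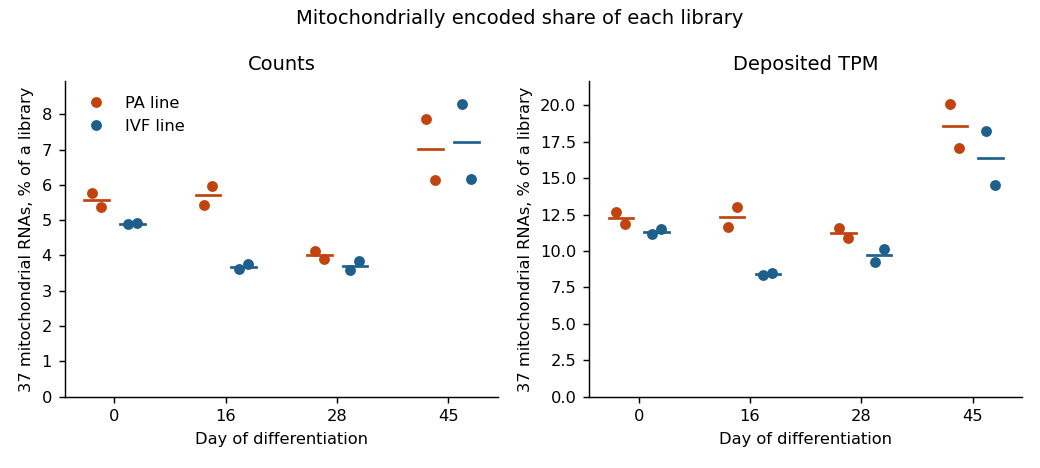
Share of each library taken by the 37 mitochondrially encoded RNAs, in percent of counts (left) and of deposited TPM (right), by day of differentiation. Points are libraries, bars are means of 2, red is the PA line and blue the IVF line. The day 45 libraries reach 8.28% of counts, and the lines stand apart at day 16.

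Between day 0 and day 16 mitochondrial messages fell in the IVF line and changed in both directions in the PA line. In the PA line 6 of the 37 members rose, 15 fell and 16 did not pass an adjusted p of 0.05 by edgeR's quasi-likelihood test with Benjamini-Hochberg adjustment. Of all genes tested, 30.3% rose and 29.3% fell in that comparison. In the IVF line 0 rose, 22 fell and 15 did not pass, while 31.2% of all genes rose and 30.1% fell. The median log2 fold change of the 37 members was -0.31 in the PA line and -1.02 in the IVF line, that of all tested genes 0.00 in both. At least 2-fold changes were called for 6 members in the PA line and 15 in the IVF line (32.4% and 34.2% of all genes tested). Pluripotent stem cell markers summed to 195 to 222 CPM at day 16 and 2145 to 2201 CPM at day 0 in the PA line, and 151 to 180.1 CPM at day 16 and 2002 to 2069 CPM at day 0 in the IVF line, and pan-neuronal markers to 1184 to 1193 CPM at day 16 and 194 to 200.4 CPM at day 0 in the PA line, and 2509 to 2602 CPM at day 16 and 342 to 417 CPM at day 0 in the IVF line. Their part in the changes was not tested. Without PA day 0 replicate 1 or PA day 16 replicate 1 the PA line kept 10 calls, and without PA day 0 replicate 2 it kept 12.

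ND5, the complex I subunit, had 7812 and 6825 CPM at day 16 in the PA line, against 4147 and 3787 CPM at day 0. All day 16 libraries lay above the day 0 libraries, the largest rise among protein genes (log2 fold change 0.88 ± 0.15, adjusted p = 1.15e-04). The IVF line had 5225 and 4812 CPM at day 16 and 5004 and 4727 CPM at day 0, and these values overlapped (log2 fold change 0.04 ± 0.14, adjusted p = 0.814). The value after ± is the standard error. Whether groups of 2 libraries overlap is given as a description only and was not counted over all genes. 16S rRNA, the large ribosomal RNA, also rose in the PA line, with 403 and 322 CPM at day 16 and 185 and 183 CPM at day 0 (log2 fold change 0.98 ± 0.13, adjusted p = 1.33e-05). Its log2 fold change in IVF cells was -0.12 ± 0.13, adjusted p = 0.451. 12S rRNA, the small ribosomal RNA, moved in opposite directions, by 0.66 ± 0.15, adjusted p = 0.00184 in the PA line and by -0.48 ± 0.15, adjusted p = 0.0138 in the IVF line. The IVF call was lost without IVF day 0 replicate 1 or IVF day 16 replicate 2.

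ND3, a small complex I subunit, fell most among protein genes in both lines. It had 184 and 204 CPM at day 16 and 323 and 337 CPM at day 0 in the PA line (log2 fold change -0.77 ± 0.16, adjusted p = 7.24e-04). IVF cells had 118 and 106 CPM at day 16 and 346 and 391 CPM at day 0 (log2 fold change -1.72 ± 0.16, adjusted p = 4.73e-07), and the groups did not overlap in either line. ATP8, ATP6, COX2 and ND1 fell by at least 2-fold in the IVF line, with log2 fold changes of -1.20 ± 0.21, -1.15 ± 0.17, -1.07 ± 0.16 and -1.02 ± 0.12. PA cells had smaller falls of ND1 (-0.65 ± 0.12), COX3 (-0.51 ± 0.15), CYTB (-0.51 ± 0.15) and COX2 (-0.43 ± 0.15), a rise of ND4L (0.33 ± 0.12), and no call for ATP6 and ATP8, at -0.33 ± 0.17 and -0.27 ± 0.20. COX1, the catalytic subunit of complex IV, did not pass in either line, at 0.05 ± 0.18 in the PA line and -0.20 ± 0.18 in the IVF line. ND6, the only protein gene on the minus strand, changed by 0.41 ± 0.13, adjusted p = 0.0173 in the PA line and by -0.31 ± 0.13, adjusted p = 0.0587 in the IVF line. The PA calls of ND6 and COX2 were lost without either PA day 0 library or without PA day 16 replicate 1, those of COX3 and CYTB without PA day 16 replicate 1, and that of CYTB also without PA day 0 replicate 1. The ND4L call was lost without either PA day 0 library or PA day 16 replicate 2.

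The step of the PA line minus that of the IVF line tested these differences between the groups of the same 8 libraries, with the spread estimated over all 16. Of the 37 members 11 had a higher step in the PA line and 0 a lower one, where 4.38% and 6.26% of all genes did. Differences of at least 2-fold were called for 5 (6.84% of all genes tested). A fit of only the libraries compared called 21 members in place of 11. The 11 were 12S rRNA (1.14 ± 0.22, adjusted p = 0.00368), 16S rRNA (1.09 ± 0.18, adjusted p = 0.00139), ND4L (1.00 ± 0.17, adjusted p = 0.00192), ND4 (0.97 ± 0.19), ND3 (0.95 ± 0.22), ND5 (0.84 ± 0.20), ATP6 (0.82 ± 0.24), ND6 (0.72 ± 0.19), tRNA-Gln, tRNA-Gly and tRNA-Arg. 12S rRNA, 16S rRNA, ND4L and ND4 kept their call without any of the 8 libraries in turn. The other 7 lost it without at least 1 of them, ND3 and ND5 without 4 each, and the count ranged from 4 to 9 over these fits, with 9 without PA day 16 replicate 1 and 4 without IVF day 16 replicate 2. COX1 had a difference of 0.25 ± 0.25, adjusted p = 0.621 and ND1 of 0.37 ± 0.17, adjusted p = 0.216, neither of which passed.

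Between day 16 and day 28 mitochondrial RNAs fell in the PA line, and few members changed in the IVF line. Among PA libraries 0 members rose, 19 fell and 18 did not pass, where 29.5% of all genes rose and 30.9% fell. Among IVF libraries 4 rose, 5 fell and 28 did not pass, where 22.9% rose and 24.1% fell. The median log2 fold change of the members was -0.44 in the PA line and -0.08 in the IVF line. At least 2-fold changes were called for 3 members in the PA line and 2 in the IVF line (34.5% and 21.7% of all genes tested). Proliferation markers summed to 355 to 391 CPM at day 28 and 2415 to 2527 CPM at day 16 in the PA line. In the IVF line they summed to 259 to 279 CPM at day 28 and 1998 to 2032 CPM at day 16. Pan-neuronal markers summed to 3874 to 3932 CPM at day 28 and 1184 to 1193 CPM at day 16 in the PA line, and 1996 to 2719 CPM at day 28 and 2509 to 2602 CPM at day 16 in the IVF line, and astrocyte markers to 35.5 to 40.0 CPM at day 28 and 295 to 336 CPM at day 16 in the PA line, and 61.2 to 72.6 CPM at day 28 and 142 to 162 CPM at day 16 in the IVF line. Their part in the changes was not tested. Leaving out 1 library left 9 to 19 calls in the PA line, 9 of them without PA day 16 replicate 2 or PA day 28 replicate 2 and 12 without PA day 28 replicate 1. The IVF line kept 5 or 6 calls, 5 without IVF day 16 replicate 2 or without either IVF day 28 library.

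ND6 had 171 and 156 CPM at day 28 in the PA line, against 394 and 364 CPM at day 16. The groups did not overlap, as for 29 of the 37 members in this comparison. ND6 had the largest fall among protein genes (log2 fold change -1.21 ± 0.14, adjusted p = 2.99e-06). IVF cells had 189.8 and 210.2 CPM at day 28 and 257 and 269 CPM at day 16 (log2 fold change -0.40 ± 0.13, adjusted p = 0.0264), a call that was lost without any 1 of the 4 libraries. ND5 fell by 1.00 ± 0.15 on the log2 scale in the PA line (adjusted p = 3.69e-05) and by 0.56 ± 0.14 in the IVF line (adjusted p = 0.00559). Both ribosomal RNAs fell in both lines. 16S rRNA had log2 fold changes of -1.14 ± 0.13, adjusted p = 2.85e-06 in the PA line and -0.92 ± 0.13, adjusted p = 4.34e-05 in the IVF line, and 12S rRNA of -0.68 ± 0.15 in the PA line and -0.75 ± 0.15 in the IVF line. COX1 fell in the PA line, where it had 15409.9 and 15096 CPM at day 28 and 23785 and 24646 CPM at day 16 (log2 fold change -0.67 ± 0.18, adjusted p = 0.00538), and its log2 fold change in the IVF line was 0.04 ± 0.18, adjusted p = 0.875. ND4 and COX3 fell in the PA line as well (-0.66 ± 0.14 and -0.64 ± 0.15).

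ND3 was the protein gene that rose in the IVF line. It had 219 and 231 CPM at day 28 and 118 and 106 CPM at day 16 (log2 fold change 1.01 ± 0.16, adjusted p = 1.23e-04), which did not overlap. PA cells had 239.8 and 204 CPM at day 28 and 184 and 204 CPM at day 16, and did not pass (log2 fold change 0.19 ± 0.16, adjusted p = 0.301). In the test of the difference between the steps, 5 members had a lower step in the PA line and 0 a higher one, where 13.6% and 15.0% of all genes did. Differences of at least 2-fold were called for 2 (15.2% of all genes tested). The 5 were ND6 (-0.82 ± 0.19, adjusted p = 0.00564), ND3 (-0.82 ± 0.22, adjusted p = 0.0134), ND4 (-0.54 ± 0.19, adjusted p = 0.0494), tRNA-Lys (-1.09 ± 0.26, adjusted p = 0.00615) and tRNA-Gln (-1.01 ± 0.36, adjusted p = 0.0485). ND6 and tRNA-Lys kept the call without any of the 8 libraries in turn, ND4 lost it without each, tRNA-Gln without 6 and ND3 without replicate 2 of any group. These fits called 2 to 4 members, 2 without replicate 2 of any group and 3 without either replicate 1 of day 28. Scaling by RLE, by the upper quartile or on nuclear genes alone gave 3 calls, and fitting only the libraries compared gave 12.

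Between day 28 and day 45 mitochondrial RNAs rose in both lines. PA libraries had 32 members that rose, 0 that fell and 5 that did not pass, where 23.0% of all genes rose and 21.0% fell. These were 13 of 13 protein genes, both ribosomal RNAs and 17 of 22 transfer RNAs. IVF libraries had 19 that rose, 0 that fell and 18 that did not pass, where 21.1% rose and 20.9% fell. These were 11 of 13 protein genes, both ribosomal RNAs and 6 of 22 transfer RNAs. The median log2 fold change of the members was 1.08 in the PA line and 0.73 in the IVF line, that of all tested genes 0.06 and 0.00. At least 2-fold changes were called for 22 members in the PA line and 9 in the IVF line (19.2% and 16.7% of all genes tested). Cell markers moved in the same step. Pan-neuronal markers summed to 1589 to 1779 CPM at day 45 and 3874 to 3932 CPM at day 28 in the PA line, and 1226 to 1675 CPM at day 45 and 1996 to 2719 CPM at day 28 in the IVF line. Vascular leptomeningeal and fibroblast markers summed to 696 to 1711 CPM at day 45 and 418 to 487 CPM at day 28 in the PA line, and 842 to 1208 CPM at day 45 and 591 to 730.2 CPM at day 28 in the IVF line. Proliferation markers summed to 165 to 409 CPM at day 45 and 355 to 391 CPM at day 28 in the PA line, and 114 to 116 CPM at day 45 and 259 to 279 CPM at day 28 in the IVF line. Their part in the changes was not tested. Fitting only the libraries compared gave 21 calls in the PA line.

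Outside the transfer RNAs the ribosomal RNAs rose most in both lines. 12S rRNA had 202 and 264 CPM at day 45 and 85.7 and 79.6 CPM at day 28 in the PA line (log2 fold change 1.50 ± 0.15, adjusted p = 4.19e-06). IVF cells had 389.6 and 270.4 CPM at day 45 and 53.5 and 51.2 CPM at day 28 (log2 fold change 2.66 ± 0.16, adjusted p = 1.48e-07). The replicates of day 45 differed in both lines, yet all lay above day 28. 16S rRNA rose by 1.52 ± 0.13 in the PA line and 1.90 ± 0.13 in the IVF line.

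Among protein genes ATP8, a small subunit of the ATP synthase, rose most in the PA line and ND5 in the IVF line. ATP8 had 1689 and 1287 CPM at day 45 and 647 and 565 CPM at day 28 in the PA line (log2 fold change 1.30 ± 0.21, adjusted p = 1.78e-04). The IVF line had 179.7 and 183 CPM at day 45 and 87.7 and 136 CPM at day 28, and its call (log2 fold change 0.70 ± 0.21, adjusted p = 0.0148) was lost without IVF day 28 replicate 1 or either day 45 library. ND5 had 11561 and 8545 CPM at day 45 and 3293 and 3521 CPM at day 28 in the IVF line (log2 fold change 1.56 ± 0.15, adjusted p = 3.66e-06). The PA line had 7448 and 5800.4 CPM at day 45 and 3845 and 3495 CPM at day 28 (log2 fold change 0.85 ± 0.14, adjusted p = 2.88e-04). ND6 rose by 1.07 ± 0.14 in the PA line and 1.46 ± 0.14 in the IVF line, and COX1 by 0.66 ± 0.18 in the PA line and 1.15 ± 0.18 in the IVF line, the PA call of COX1 being lost without PA day 28 replicate 2 or PA day 45 replicate 1. ND3 rose by 1.23 ± 0.16, adjusted p = 2.79e-05 in the PA line and did not pass in the IVF line (0.38 ± 0.16, adjusted p = 0.0635).

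CYTB, the subunit of complex III, had 1058 and 713 CPM at day 45 and 1075 and 1169 CPM at day 28 in the IVF line, the only protein gene with a negative log2 fold change there, which did not pass (log2 fold change -0.34 ± 0.15, adjusted p = 0.0781). The PA line had 1318 and 1423 CPM at day 45 and 1036 and 1064 CPM at day 28 (log2 fold change 0.38 ± 0.15, adjusted p = 0.0478), a call that was lost without either day 28 library or PA day 45 replicate 2. The steps differed for 6 members, 3 with a higher and 3 with a lower step in the PA line, where 15.8% and 15.2% of all genes did. The higher ones were ND3 (0.85 ± 0.22, adjusted p = 0.0102), CYTB (0.73 ± 0.21, adjusted p = 0.0171) and tRNA-Lys (1.57 ± 0.25, adjusted p = 4.23e-04), and the lower ones 12S rRNA (-1.16 ± 0.22, adjusted p = 0.00120), ND5 (-0.71 ± 0.20, adjusted p = 0.0171) and tRNA-Ser(UCN) (-0.97 ± 0.34, adjusted p = 0.0409). Differences of at least 2-fold were called for 2 (15.8% of all genes tested). Over fits without 1 library 3 to 9 members were called, 3 without PA day 28 replicate 1 and 9 without PA day 45 replicate 1, and 12S rRNA and tRNA-Lys kept their call in each. ND3 lost it without PA day 28 replicate 2, CYTB without PA day 28 replicate 1 or either IVF replicate 2, ND5 without any replicate 1 but that of PA day 45, and tRNA-Ser(UCN) without 6 of the 8. Fitting only the libraries compared gave 2 calls.

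**Figure D2:**
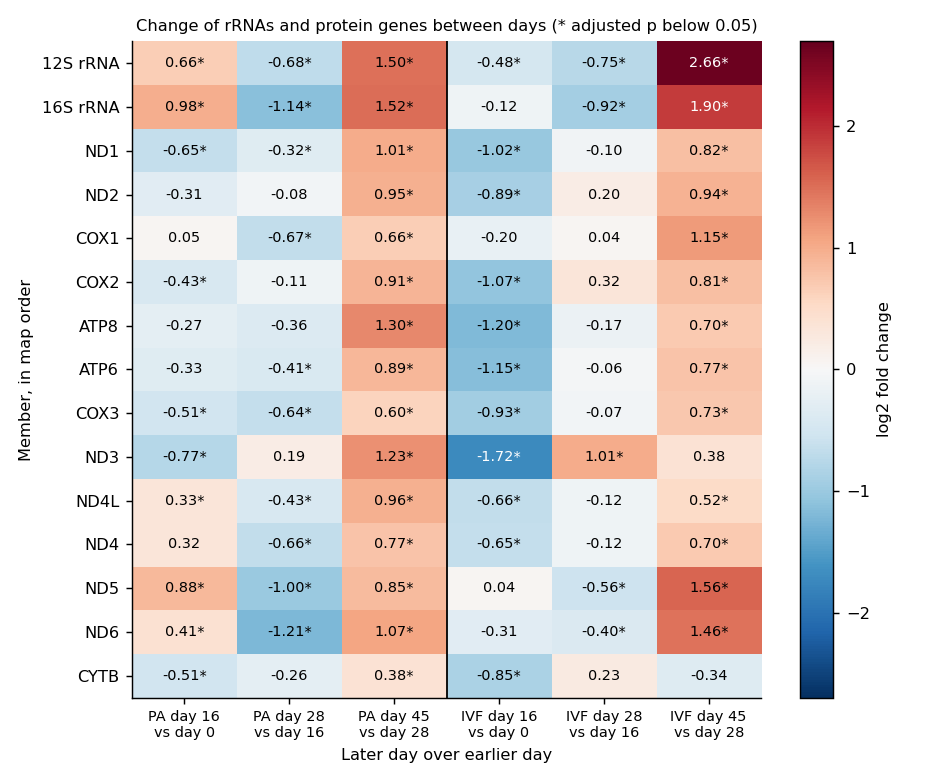
log2 fold changes of the 2 ribosomal RNAs and 13 protein genes, in map order, for each step of the PA line (left 3 columns) and the IVF line (right 3 columns), later day over earlier day. An asterisk marks an adjusted p below 0.05, red a rise and blue a fall. All 15 rose at the last step in the PA line, and 12S rRNA has the largest value, 2.66 in the IVF line.

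The composition of the mitochondrial messages shifted with the day. COX1 took 39.4% and 38.3% of the counts of the 13 protein genes at day 0 in the PA line, 42.9% and 41.3% at day 16, 39.3% and 40.7% at day 28 and 39.9% and 33.6% at day 45. Its IVF share was 35.3% and 33.8% at day 0, 42.0% and 44.7% at day 16, 46.1% and 46.0% at day 28 and 50.1% and 50.6% at day 45. The IVF share was highest at day 45, whereas the PA share had no such order and its day 45 replicates differed. COX3 had its highest shares at day 0 in both lines, 19.3% and 18.6% in the PA line and 20.0% and 19.1% in the IVF line, and its lowest at day 45, 11.8% and 12.4% in the PA line and 11.8% and 11.9% in the IVF line.

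ND5, whose gene lies far from COX1 on the map, took 6.69% and 6.49% at day 0 in the PA line, 14.1% and 11.4% at day 16, 9.80% and 9.42% at day 28 and 9.90% and 10.7% at day 45. Its IVF share was 9.75% and 9.14% at day 0, 15.0% and 13.2% at day 16, 9.82% and 9.86% at day 28 and 14.3% and 14.2% at day 45, so that days 16 and 45 stood above days 0 and 28 there. ND4 and ND5 can be set against each other as complex I genes of one strand: ND5 had 160.0 and 148 counts per 100 of ND4 in the PA line and 249.8 and 261 in the IVF line at day 45. CYTB took 1.75% and 2.63% in the PA line and 1.31% and 1.18% in the IVF line at day 45, where the IVF values were its lowest in any group. The ratio of 16S to 12S rRNA counts was 2.19 and 1.90 in the PA line and 0.922 and 1.05 in the IVF line at day 45, and 2.88 and 2.58 in the PA line and 1.87 and 1.82 in the IVF line at day 16. These shares and ratios are descriptions of counts, with no test.

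**Figure D3:**
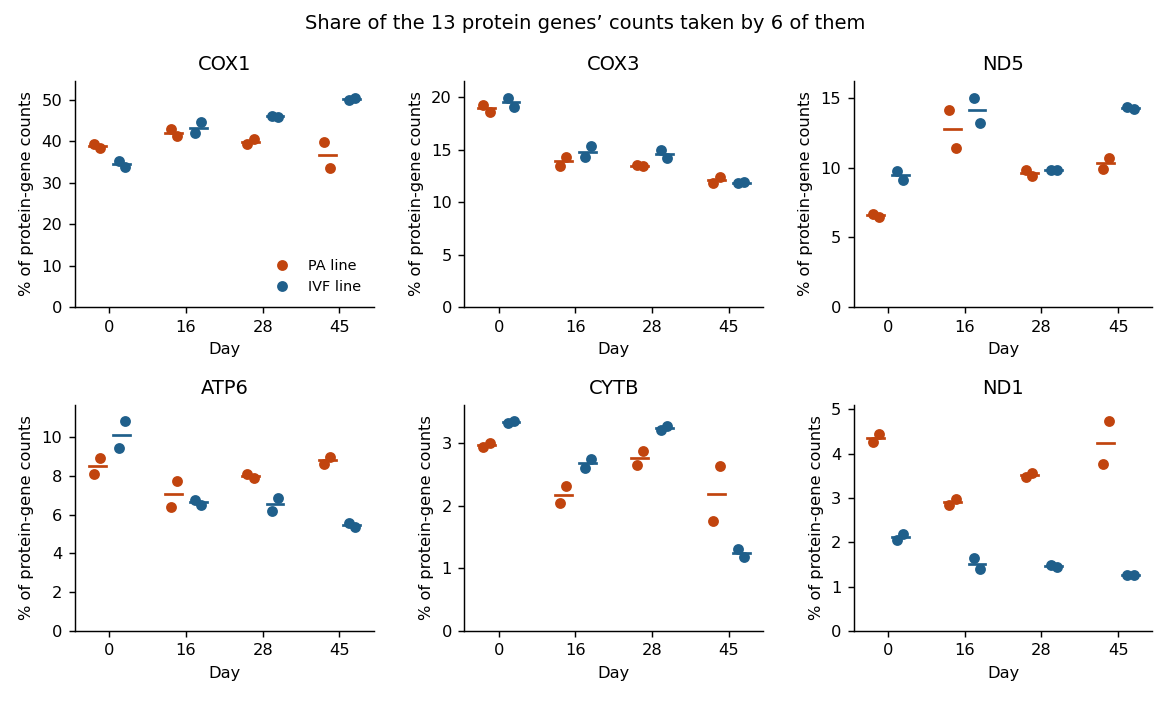
Share of the counts of the 13 mitochondrial protein genes taken by COX1, COX3, ND5, ATP6, CYTB and ND1, in percent, by day. Points are libraries, bars are means of 2, red is the PA line and blue the IVF line. COX1 stands at 50.1% and 50.6% in the IVF line at day 45, and ND1 is higher in the PA line at each day.

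Comparing the lines at each day, PA over IVF, 11 members were higher and 4 lower in the PA line at day 0, where 8.95% and 7.69% of all genes were. At day 16 25 were higher and 0 lower (9.21% and 11.2% of all genes). At day 28 16 were higher and 0 lower (19.8% and 20.2%), and at day 45 21 were higher and 5 lower (20.2% and 18.7%). The median log2 fold changes of the 37 members were 0.11, 0.79, 0.29 and 0.56 at days 0, 16, 28 and 45, those of all tested genes 0.01, 0.01, 0.00 and 0.03. At least 2-fold differences at these days were called for 12, 14, 12 and 14 members (6.61%, 9.08%, 17.1% and 13.9% of all genes tested). These comparisons use the same libraries as the steps between days. Fitting only the libraries compared gave 26 calls at day 0 and 15 at day 45.

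A core of 11 members was higher in the PA line at each of the 4 days: ND1, ATP8 and the transfer RNAs for valine, tryptophan, alanine, asparagine, cysteine, tyrosine, lysine, threonine and proline. Of all genes tested, 0.777% were higher in the PA line at each of the 4 days and 0.658% lower. For these 11 members, all 8 PA libraries had more CPM than all 8 IVF libraries, and for none of the other 26 did the lines separate in this way. The 11 were chosen by their calls at each day, so this separation adds no further support. How many of all tested genes separate in this way was not counted. The same 11 were called in each other fit at an adjusted p of 0.05 and without each of the 16 libraries in turn, and in some COX2 made 12.

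tRNA-Trp, which reads the UGA codon as tryptophan in mitochondria, had 146 and 157 counts in the PA line and 2 and 6 in the IVF line at day 0. It had 70 and 76 counts in the PA line and 0 and 1 in the IVF line at day 16, 67 and 47 in the PA line and 0 and 0 in the IVF line at day 28, and 89 and 148 in the PA line and 6 and 3 in the IVF line at day 45. At day 28 no IVF library had a count, so the PA level was at least 19.3-fold higher against a floor of 3 counts in each library. At day 16 the IVF line had 1 count in all and the ratio was 149-fold (95% exact counting interval 26.4 to 5944).

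tRNA-Ala had 50 to 163 counts (median 104) in the 8 PA libraries and 1 to 2 (median 1) in the 8 IVF libraries, and the ratio of PA to IVF was 86.6-fold (95% exact counting interval 29.4 to 422) at day 0 and 88.7-fold (95% exact counting interval 30.0 to 433) at day 45. tRNA-Val, which lies between the ribosomal RNA genes, had 25 to 193 counts (median 61.5) in the 8 PA libraries and 1 to 2 (median 1) in the 8 IVF libraries, a ratio of 21.7-fold (95% exact counting interval 5.72 to 184) at day 0 and 96.9-fold (95% exact counting interval 32.8 to 473) at day 45. Counting intervals cover counting error only. tRNA-Lys, the most counted of the 9, had 357 to 1271 counts (median 849.5) in the 8 PA libraries and 40 to 104 (median 70) in the 8 IVF libraries. Its log2 fold changes were 3.25 ± 0.18, 3.57 ± 0.19, 2.49 ± 0.18 and 4.05 ± 0.18 at days 0, 16, 28 and 45. tRNA-Pro had 81 to 246 counts (median 138) in the 8 PA libraries and 2 to 9 (median 5.50) in the 8 IVF libraries, and tRNA-Cys 73 to 257 counts (median 126) in the 8 PA libraries and 4 to 20 (median 6.50) in the 8 IVF libraries. tRNA-Asn, tRNA-Tyr and tRNA-Thr had log2 fold changes between 2.22 and 3.87.

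**Figure D4:**
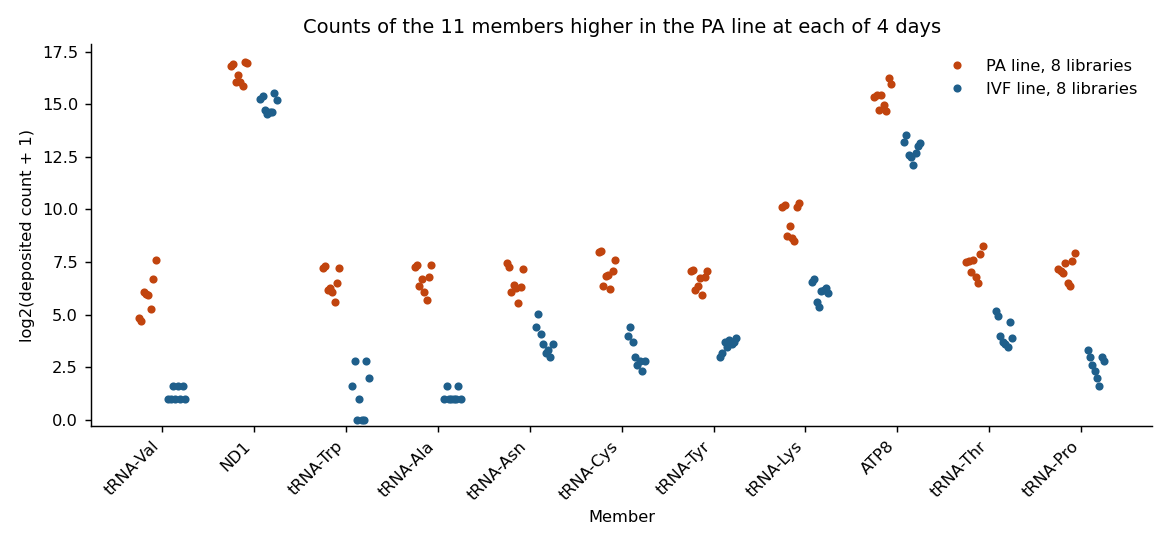
Deposited counts of the 11 members that were higher in the PA line at each of the 4 days, on a log2(count + 1) scale. Each point is 1 library, red for the PA line and blue for the IVF line, in order of day from left to right. The clouds of the lines do not overlap for any of the 11, and tRNA-Val, tRNA-Trp and tRNA-Ala have 0 to 6 counts in the IVF libraries.

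ATP8 had 936 and 941 CPM in the PA line and 259.6 and 317 CPM in the IVF line at day 0 (log2 fold change 1.70 ± 0.21, adjusted p = 9.96e-05). Its log2 fold change was 2.63 ± 0.22, adjusted p = 1.96e-06 at day 16, 2.44 ± 0.22, adjusted p = 1.84e-06 at day 28 and 3.04 ± 0.22, adjusted p = 4.85e-07 at day 45. ATP6, which overlaps it, gave -0.03 ± 0.17, adjusted p = 0.964 at day 0, 0.79 ± 0.17, adjusted p = 0.00493 at day 16, 0.43 ± 0.17, adjusted p = 0.0574 at day 28 and 0.56 ± 0.17, adjusted p = 0.0190 at day 45. Its day 16 call was lost without PA day 16 replicate 2 and its day 45 call without PA day 45 replicate 1 or IVF day 45 replicate 2. Per 100 counts of ATP6, ATP8 had 18.6 and 18.1 counts in the PA line and 5.35 and 5.67 in the IVF line at day 0, and 26.0 and 26.4 in the PA line and 4.01 and 5.66 in the IVF line at day 45. ND1, a membrane subunit of complex I, had 2647 and 2599 CPM in the PA line and 1055 and 1127 CPM in the IVF line at day 0 (log2 fold change 1.27 ± 0.13, adjusted p = 1.32e-05). It gave 1.63 ± 0.13, 1.41 ± 0.13 and 1.60 ± 0.13 at days 16, 28 and 45.

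On the map the 11 members lie in 5 stretches. tRNA-Trp, tRNA-Ala, tRNA-Asn, tRNA-Cys and tRNA-Tyr are 5 neighbours between ND2 and COX1 (MT:6129-6509), tRNA-Lys and ATP8 are neighbours (MT:8891-9162), and tRNA-Thr and tRNA-Pro are the last pair (MT:16482-16613). tRNA-Val (MT:2206-2273) and ND1 (MT:3922-4876) stand alone. Both strands are represented, with 5 of the 11 and 4 of the other 26 on the minus strand. Their median GC content was 39.4%, against 38.4% for the other 26. A near copy in the nuclear genome was found for 9 of the 11 and 8 of the other 26, tRNA-Thr and tRNA-Pro having none. It had to be an aligned stretch of at least 100 bases that was at least 95% identical over its length. The stretch had to cover a whole transfer RNA or at least 100 bases of a longer gene. A shorter copy of a transfer RNA alone was not counted. Reads of both lines were aligned to 1 mitochondrial sequence, and the lines' own mitochondrial sequences were not analysed here. Whether the RNA level or the alignment of each line's reads differed cannot be told apart, and the part of the nuclear copies was not tested.

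**Figure D5:**
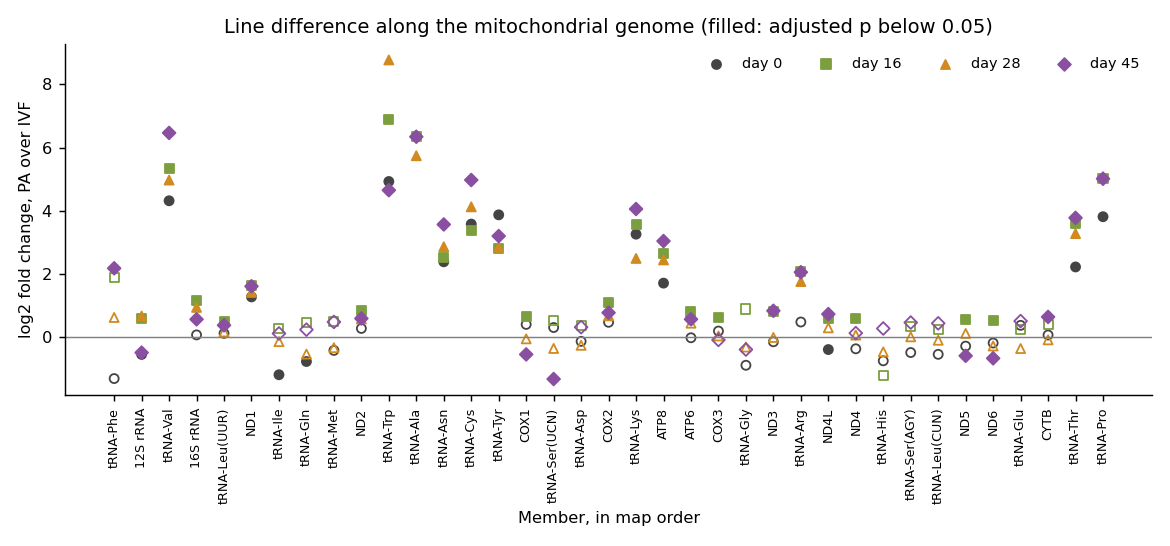
log2 fold change of the PA line over the IVF line for each of the 37 members in map order, at days 0, 16, 28 and 45 (marker shapes). Filled markers have an adjusted p below 0.05. The high values sit at tRNA-Val, ND1, the run from tRNA-Trp to tRNA-Tyr, tRNA-Lys with ATP8, and tRNA-Thr with tRNA-Pro, and the tRNA-Trp value at day 28 is a fitted one with no IVF count behind it.

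Outside the 11, no member was called higher in the PA line at all 4 days, and the members called changed with the day. COX2, ND2, 16S rRNA and tRNA-Arg had positive log2 fold changes at each day and were called higher at 3 of them. At day 0 only ND4L among the other protein genes passed, lower in the PA line (-0.40 ± 0.12, adjusted p = 0.0353), as was 12S rRNA (-0.56 ± 0.15, adjusted p = 0.0235), and both calls were lost without any 1 of the 4 libraries. At day 16 all protein genes but CYTB (0.40 ± 0.15, adjusted p = 0.0759) were higher in the PA line. COX2 had 3249.7 and 4158 CPM in the PA line and 1747 and 1716 CPM in the IVF line at that day (log2 fold change 1.10 ± 0.16, adjusted p = 2.04e-04). 16S rRNA had 403 and 322 CPM in the PA line and 169.6 and 156 CPM in the IVF line (log2 fold change 1.15 ± 0.13, adjusted p = 2.50e-05). COX1 gave 0.65 ± 0.18, adjusted p = 0.0209, a call lost without any 1 of the 4 libraries. Calls of ATP6, COX3, ND4L, ND4, ND5, ND6 and 12S rRNA at day 16 were each lost without at least 1 of them. At day 28 COX2 (0.66 ± 0.15, adjusted p = 0.00347), ND2 (0.57 ± 0.15, adjusted p = 0.00890) and both ribosomal RNAs were higher in the PA line, the ND2 call being lost without replicate 1 of either line. COX1 (-0.06 ± 0.18, adjusted p = 0.827), COX3 (0.03 ± 0.15), ND4 (0.05 ± 0.14) and ND6 (-0.29 ± 0.14) did not pass.

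At day 45 the order of the lines was split between genes. Among protein genes ND6 had the lowest log2 fold change, with 366 and 321 CPM in the PA line and 646 and 455 CPM in the IVF line (log2 fold change -0.68 ± 0.14, adjusted p = 0.00141). ND5 (-0.60 ± 0.14, adjusted p = 0.00484), COX1 (-0.56 ± 0.18, adjusted p = 0.0247), 12S rRNA (-0.50 ± 0.15, adjusted p = 0.0177) and tRNA-Ser(UCN) (-1.34 ± 0.24, adjusted p = 6.90e-04) were lower too. The ND5 call was lost without IVF day 45 replicate 1, that of COX1 without that library or PA day 45 replicate 2, and that of 12S rRNA without that library or PA day 45 replicate 1. ND3 (0.83 ± 0.16, adjusted p = 0.00103), COX2 (0.77 ± 0.15, adjusted p = 0.00161), ND4L (0.72 ± 0.12, adjusted p = 4.34e-04) and CYTB (0.63 ± 0.15, adjusted p = 0.00418) were higher in the PA line. COX1 had 29983 and 18192 CPM in the PA line at day 45 and 40478 and 30407 CPM in the IVF line, so that the PA replicates lay far apart. Among cell markers, dopaminergic markers summed to 150.0 to 218 CPM in the PA line and 237 to 247 CPM in the IVF line at day 45, and proliferation markers to 165 to 409 CPM in the PA line and 114 to 116 CPM in the IVF line. At day 16 astrocyte markers summed to 295 to 336 CPM in the PA line and 142 to 162 CPM in the IVF line, and pan-neuronal markers to 1184 to 1193 CPM in the PA line and 2509 to 2602 CPM in the IVF line. The part of the cell makeup in the differences was not tested.

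Of the transfer RNA rows, tRNA-Ser(UCN) held by far the most counts, 10013 to 48739 per library, 61.9% to 93.7% of all transfer RNA counts. Beside COX1, its neighbour on the other strand, it had 1.29 to 2.63 counts per 100 of COX1 counts. The strand setting of the authors' counting is not given in the sources used here, so reads of COX1 that run into this row and reads of the minus strand cannot be told apart. At day 45 over day 28 its log2 fold change was 0.60 ± 0.24, adjusted p = 0.0527 in the PA line and 1.58 ± 0.24, adjusted p = 1.69e-04 in the IVF line. tRNA-Leu(UUR), which follows 16S rRNA, had 857 to 2658 counts. It fell at day 16 over day 0 in both lines, with log2 fold changes of -0.88 ± 0.13 in the PA line and -1.26 ± 0.13 in the IVF line, and rose at day 45 over day 28, by 1.19 ± 0.13 in the PA line and 0.98 ± 0.13 in the IVF line. tRNA-Met had 149 to 623 counts and did not differ past the threshold between the lines at any day, with values of -0.43 ± 0.26, 0.50 ± 0.26, -0.34 ± 0.26 and 0.47 ± 0.25. tRNA-Lys, among the 9 rows with a line difference at each day, had 40 to 1271 counts. Apart from these 4, the transfer RNA rows had at most 469 counts in a library, and tRNA-His had 3 to 17.

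tRNA-Gly, which lies just before ND3, fell with it at day 16. It had 24 and 34 counts at day 16 and 104 and 86 at day 0 in the PA line (log2 fold change -1.73 ± 0.34, adjusted p = 5.74e-04). IVF cells had 17 and 15 counts at day 16 and 158 and 134 at day 0 (log2 fold change -3.52 ± 0.37, adjusted p = 1.51e-06), the largest fall of any member in the IVF line. It was named after its values were seen. From day 16 to day 28 it changed by 0.48 ± 0.36, adjusted p = 0.265 in the PA line and by 1.68 ± 0.38, adjusted p = 0.00207 in the IVF line.

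Nuclear genes that serve the mitochondrial genome were described as lists, by the number of called members, beside the share of all tested genes called in that direction, and their median log2 fold change, and values given for genes are log2 fold changes with standard errors. In the list of 10 transcription factors and cofactors, 1 of 10 rose (all genes 30.3%), 5 fell (29.3%) and 4 did not pass at day 16 over day 0 in the PA line (median -0.48), and 0 of 10 rose (all genes 31.2%), 5 fell (30.1%) and 5 did not pass in the IVF line (median -0.50). POLRMT, the polymerase itself, fell in the PA line (-0.85 ± 0.11) and the IVF line (-0.72 ± 0.11), as did MRPL12, a mitochondrial ribosomal protein that binds the polymerase (-0.92 ± 0.14 in the PA line and -0.96 ± 0.14 in the IVF line). At day 45 over day 28, 2 of 10 rose (all genes 23.0%), 0 fell (21.0%) and 8 did not pass in the PA line, with TFB2M at 0.94 ± 0.25 and TFAM, which packs and starts transcription of mitochondrial DNA, at 0.66 ± 0.22. Both calls were lost without PA day 28 replicate 2 or PA day 45 replicate 2 and with only the libraries compared, and that of TFAM also without PA day 28 replicate 1. Of the same list 1 of 10 rose (all genes 21.1%), 2 fell (20.9%) and 7 did not pass in the IVF line. The list's median was 0.15 in the PA line and 0.01 in the IVF line, that of all tested genes 0.06 in the PA line and 0.00 in the IVF line. Between days 16 and 28, 1 of 10 rose (all genes 29.5%), 2 fell (30.9%) and 7 did not pass in the PA line and 2 of 10 rose (all genes 22.9%), 1 fell (24.1%) and 7 did not pass in the IVF line.

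Of 28 genes that process, modify or stabilise mitochondrial RNA, 2 of 28 rose (all genes 30.3%), 17 fell (29.3%) and 9 did not pass in the PA line at day 16 over day 0 (median -0.56), and 1 of 28 rose (all genes 31.2%), 20 fell (30.1%) and 7 did not pass in the IVF line (median -0.59). FASTKD1 and FASTKD2, RNA-binding proteins of mitochondria, fell in both, at -1.16 ± 0.13 and -1.38 ± 0.16 in the PA line and -1.45 ± 0.13 and -1.66 ± 0.16 in the IVF line. LRPPRC, which stabilises mitochondrial messages, fell in the IVF line (-1.05 ± 0.12). Between days 16 and 28, 3 of 28 rose (all genes 29.5%), 13 fell (30.9%) and 12 did not pass in the PA line and 5 of 28 rose (all genes 22.9%), 6 fell (24.1%) and 17 did not pass in the IVF line, with PTCD2, a pentatricopeptide repeat protein, falling in the PA line (-1.56 ± 0.14) and the IVF line (-0.93 ± 0.14). The rises of the IVF line numbered 2 without either day 16 library or IVF day 28 replicate 1 and 3 without IVF day 28 replicate 2, which also left 3 falls. At day 45 over day 28, 9 of 28 rose (all genes 23.0%), 3 fell (21.0%) and 16 did not pass in the PA line and 2 of 28 rose (all genes 21.1%), 9 fell (20.9%) and 17 did not pass in the IVF line. The rises of the PA line numbered 4 without PA day 28 replicate 2, 15 without PA day 45 replicate 1 and 2 with only the libraries compared. PNPT1, an RNA-degrading enzyme, fell by 1.00 ± 0.12 on the log2 scale in the IVF line, as did ELAC2, which cuts transfer RNA ends (-0.68 ± 0.12). The steps differed for PNPT1 (1.52 ± 0.17), LRPPRC (1.01 ± 0.17) and FASTKD2 (1.31 ± 0.23), all higher in the PA line. In that comparison 9 of the list had a higher and 0 a lower step in the PA line (median 0.38, all tested genes 0.03, of which 15.8% had a higher and 15.2% a lower step), a count that was 5 without either IVF day 28 library, 4 without PA day 28 replicate 2 and 4 with only the libraries compared.

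Nuclear genes also encode most subunits of the respiratory chain and ATP synthase. Of 50 tested, 22 were higher and 0 lower in the PA line at day 0 (median 0.38, 8.95% and 7.69% of all genes), and 4 were higher and 0 lower at day 16 (median 0.17, 9.21% and 11.2% of all genes). On day 28 0 were higher and 38 lower (median -0.51, 19.8% and 20.2% of all genes), and at day 45 0 were higher and 37 lower (median -0.44, 20.2% and 18.7% of all genes). The 13 mitochondrial protein genes gave 4 higher and 0 lower at day 28 (median 0.11) and 8 higher and 3 lower at day 45 (median 0.58). SDHD, a subunit of complex II, which has no mitochondrially encoded subunit, was at -0.84 ± 0.09 at day 28, and COX4I1 of complex IV at -0.82 ± 0.13 at day 45. The count at day 0 depended on single libraries, with 4 without IVF day 0 replicate 1 or PA day 0 replicate 2, 6 without IVF day 0 replicate 2, 13 without PA day 0 replicate 1 and 40 with only the libraries compared. That at day 45 was 3 with only the libraries compared. Whether the nuclear and mitochondrial lists differed from each other was not tested.

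Over time most of this nuclear list fell at day 16 over day 0 in both lines, where 0 of 50 rose (all genes 30.3%), 33 fell (29.3%) and 17 did not pass in the PA line (median -0.56) and 2 of 50 rose (all genes 31.2%), 30 fell (30.1%) and 18 did not pass in the IVF line (median -0.38). UQCRFS1, the Rieske protein of complex III, fell in the PA line (-1.62 ± 0.09) and the IVF line (-1.31 ± 0.09). At day 28 over day 16 the lines parted: 0 of 50 rose (all genes 29.5%), 35 fell (30.9%) and 15 did not pass in the PA line (median -0.46), and 17 of 50 rose (all genes 22.9%), 3 fell (24.1%) and 30 did not pass in the IVF line (median 0.23). The test of the difference gave 38 lower steps and 0 higher ones in the PA line (median -0.66, 13.6% and 15.0% of all genes). At day 45 over day 28, 19 of 50 rose (all genes 23.0%), 1 fell (21.0%) and 30 did not pass in the PA line (median 0.27) and 20 of 50 rose (all genes 21.1%), 2 fell (20.9%) and 28 did not pass in the IVF line (median 0.25). The mitochondrial protein genes had medians of 0.91 in the PA line and 0.77 in the IVF line in that step. Rises of the nuclear list from day 16 to day 28 in the IVF line numbered 10 without either day 16 library or IVF day 28 replicate 1 and 27 with only the libraries compared. At day 45 they numbered 10 in the PA line without either day 28 library and 6 with only the libraries compared, and in the IVF line 7 without IVF day 28 replicate 2 and 8 without IVF day 45 replicate 1.

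Mitochondrial ribosomal proteins assemble with 12S and 16S rRNA. At day 16 over day 0, 2 of 23 rose (all genes 30.3%), 18 fell (29.3%) and 3 did not pass in the PA line and 1 of 23 rose (all genes 31.2%), 16 fell (30.1%) and 6 did not pass in the IVF line (medians -0.58 in the PA line and -0.54 in the IVF line). From day 16 to day 28, 1 of 23 rose (all genes 29.5%), 17 fell (30.9%) and 5 did not pass in the PA line and 1 of 23 rose (all genes 22.9%), 9 fell (24.1%) and 13 did not pass in the IVF line, and at day 45 over day 28, 9 of 23 rose (all genes 23.0%), 0 fell (21.0%) and 14 did not pass in the PA line and 4 of 23 rose (all genes 21.1%), 3 fell (20.9%) and 16 did not pass in the IVF line. The IVF falls to day 28 numbered 5 without IVF day 16 replicate 2. The PA rises to day 45 numbered 4 without PA day 28 replicate 1, 3 without PA day 28 replicate 2 and 3 with only the libraries compared. MRPS15 of the small subunit fell at day 16 in the PA line (-1.34 ± 0.12) and the IVF line (-1.37 ± 0.12). Of the mitochondrial DNA replication list, 3 of 11 rose (all genes 30.3%), 4 fell (29.3%) and 4 did not pass at day 16 in the PA line and 1 of 11 rose (all genes 31.2%), 6 fell (30.1%) and 4 did not pass in the IVF line. In the next step, 1 of 11 rose (all genes 29.5%), 6 fell (30.9%) and 4 did not pass in the PA line and 2 of 11 rose (all genes 22.9%), 5 fell (24.1%) and 4 did not pass in the IVF line, and at day 45 over day 28, 3 of 11 rose (all genes 23.0%), 1 fell (21.0%) and 7 did not pass in the PA line and 3 of 11 rose (all genes 21.1%), 2 fell (20.9%) and 6 did not pass in the IVF line. The 5 IVF falls in that next step were 3 without either day 28 library. TOP1MT, the mitochondrial topoisomerase, was higher in the PA line at day 0 (1.93 ± 0.24), day 16 (2.23 ± 0.23) and day 28 (1.05 ± 0.25). TK2, a thymidine kinase of mitochondria, fell at day 16 in the PA line (-1.34 ± 0.15) and the IVF line (-1.55 ± 0.15), and rose at day 28 by 1.45 ± 0.15 in the PA line and 1.41 ± 0.15 in the IVF line.

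Regulators of mitochondrial biogenesis went in both directions. PPARGC1A, the coactivator PGC-1 alpha, rose at day 16 by 5.47 ± 0.23 in the PA line and 6.27 ± 0.24 in the IVF line and again at day 28 by 2.07 ± 0.14 in the PA line and 3.49 ± 0.15 in the IVF line. It was lower in the PA line at day 28 (-1.94 ± 0.14) and day 45 (-1.38 ± 0.14). ESRRA, a nuclear receptor that works with it, fell at day 16 (-2.44 ± 0.15 in the PA line and -1.49 ± 0.14 in the IVF line) and rose at day 28 (1.38 ± 0.14 in the PA line and 1.65 ± 0.14 in the IVF line). Over the list, 3 of 13 rose (all genes 30.3%), 6 fell (29.3%) and 4 did not pass at day 16 in the PA line and 3 of 13 rose (all genes 31.2%), 6 fell (30.1%) and 4 did not pass in the IVF line. The PA falls numbered 3 without PA day 0 replicate 2 or PA day 16 replicate 2. In the step to day 28 4 of 13 rose (all genes 29.5%), 3 fell (30.9%) and 6 did not pass in the PA line and 4 of 13 rose (all genes 22.9%), 2 fell (24.1%) and 7 did not pass in the IVF line, and at day 45 over day 28 3 of 13 rose (all genes 23.0%), 2 fell (21.0%) and 8 did not pass in the PA line and 1 of 13 rose (all genes 21.1%), 3 fell (20.9%) and 9 did not pass in the IVF line.

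In the mitochondrial stress response list, 4 of 16 rose (all genes 30.3%), 8 fell (29.3%) and 4 did not pass at day 16 over day 0 in the PA line and 7 of 16 rose (all genes 31.2%), 6 fell (30.1%) and 3 did not pass in the IVF line. ATF5, a transcription factor of that response, rose by 3.96 ± 0.21 in the PA line and 4.45 ± 0.22 in the IVF line. At day 28 over day 16, 1 of 16 rose (all genes 29.5%), 12 fell (30.9%) and 3 did not pass in the PA line and 0 of 16 rose (all genes 22.9%), 11 fell (24.1%) and 5 did not pass in the IVF line, with falls of PSAT1, an enzyme of serine synthesis (-4.63 ± 0.19 in the PA line and -3.98 ± 0.19 in the IVF line), and of ASNS, which makes asparagine (-3.69 ± 0.13 in the PA line and -3.16 ± 0.13 in the IVF line). At day 45 over day 28 12 of 16 rose (all genes 23.0%), 1 fell (21.0%) and 3 did not pass in the PA line and 4 of 16 rose (all genes 21.1%), 4 fell (20.9%) and 8 did not pass in the IVF line. HSPA9, a mitochondrial chaperone, rose by 1.10 ± 0.16 in the PA line. In that step 6 members had a higher and 0 a lower step in the PA line (median 0.65, 15.8% and 15.2% of all genes), among them MTHFD2 (1.59 ± 0.21). The PA rises numbered 6 with only the libraries compared, and the higher steps 12 without PA day 45 replicate 1.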

How the data were processed

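Poly-A RNA of 16 libraries (2 lines, 4 days, 2 replicates each) was sequenced as paired 100-base reads with a stranded kit. Per the paper's methods and the submitters' processing notes, reads were trimmed with Trimmomatic 0.38, aligned to Sscrofa11.1 with HISAT2 2.1.0, handled with SAMtools 1.9 and assembled and quantified with StringTie 2.1.3b on RefSeq genes. The strand setting of the counting is not given in the sources used here. The authors deposited raw read counts per gene, which were used for all tests. They also deposited TPM, scaled by transcript length and library, used here to rank genes and for an alternative share, and the deposited FPKM values were not used.

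Counts were scaled by TMM and filtered with filterByExpr over the 8 groups (18528 of 28232 genes), and edgeR 4.0.16 quasi-likelihood F tests (limma 3.58.1, R 4.3.3) were fitted on all 16 libraries with 8 group means and 8 residual degrees of freedom, in 13 comparisons. A call is a Benjamini-Hochberg adjusted p below 0.05 over all genes tested, and standard errors were derived from the fold change and the F value. CPM are counts scaled to library size with TMM factors. Shares of counts were compared with two-sided exact permutation tests over libraries, within days or lines. The code was tested on simulated data with known changes. Values (Python 3.11.15, pandas 2.3.3, scipy 1.17.1) of 0 counts were set against a floor of 3 counts per library, 0.0575 to 0.0764 CPM before TMM factors, and ratios resting on 1 to 3 counts have 95% exact counting intervals, which cover counting error only. Nuclear copies were searched with blastn 2.17.0. Sequences and coordinates are from RefSeq (Sscrofa11.1).

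All 37 members are given as values, ranges or counts. Named with statistics were, per comparison, the protein genes with the largest called rise and fall, ND6, the ribosomal RNAs, the 4 transfer RNA rows with most counts and up to 3 called genes of a nuclear list with the smallest adjusted p; other members named were chosen after their values were seen. The 7 nuclear lists hold 152 genes (151 in the table, 22 matched by an older symbol or a description) and the 9 marker lists 57 genes (55 in the table). The rule for the members uses annotation only, but members and lists were chosen with earlier results of these data known. Replicates were compared by a chi-square per gene, whose median over genes was 1.73 to 16.9 across the groups, and no pair was counted as 1 sample. The settings varied were the scaling (total counts, upper quartile, RLE or nuclear genes only), the filter, DESeq2 1.42.0 in place of edgeR, a replicate block, only the libraries compared, a 2-fold minimum and leaving out each library.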

Additional observations from a re-analysis of the deposited data

Results flagged for a closer look

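The change between successive days was tested for a difference between the lines with edgeR's quasi-likelihood test, PA step minus IVF step, and members were called in each of the 3 steps. At day 16 over day 0, 11 of the 37 members had a different step, all higher in the PA line (4.38% of all genes tested were higher and 6.26% lower), with ND4L at 1.00 on the log2 scale, the largest difference among protein genes. At day 28 over day 16, 5 of 37 differed, all lower in the PA line, where 13.6% of all genes were lower and 15.0% higher, with ND6 at -0.82, the lowest value among protein genes beside that of ND3. At day 45 over day 28, 6 of 37 differed, 3 higher and 3 lower, where 15.8% of all genes were higher and 15.2% lower, with ND3 at 0.85 and ND5 at -0.71. The members' counts at the last 2 steps are not above those shares. The errors and the libraries on which each call rests stand in the report.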

How the results depend on the processing

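Over the 37 members and 13 comparisons, 226 of 481 tests were called, and no called change reversed in any alternative. Of the 226, 217 were kept with RLE scaling, 220 with the upper quartile, 212 with total counts, 222 with scaling on nuclear genes, 219 without a filter, 224 with a 1 CPM filter, 214 with DESeq2 and 194 with only the libraries compared; 146 were kept without each library in turn, 180 in every other fit and 139 in all. Total-count scaling moved the median of all genes by 0.118 (log2) at day 16 over day 0 in the IVF line and by 0.116 for PA step minus IVF step at day 45 over day 28. Of 52 counts of nuclear lists of 5 or more genes, 30 changed by more than 1.5 times in at least 1 setting.

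A 2-fold minimum left 6 calls (PA) at day 16 over day 0, 3 (PA) and 2 (IVF) at day 28 over day 16, 9 (IVF) at day 45 over day 28, 14 between the lines at day 16 and 14 at day 45, and 5, 2 and 2 for the difference of the 3 steps. Only the libraries compared gave 21 calls (PA, day 45 over day 28), 26 between the lines at day 0 and 15 at day 45, and 21, 12 and 2 for the steps. The step from day 16 to day 28 had 3 differing members with RLE, upper quartile or nuclear scaling. The cause was not tested. Without 1 library the counts ranged from 10 to 18 (PA, day 16 over day 0), 9 to 19 (PA) and 5 to 6 (IVF) at day 28 over day 16, 4 to 9, 2 to 4 and 3 to 9 for the steps, and within 1.5 times of the full count in all other comparisons. As a share of TPM, which includes ATP8 and ND1, PA minus IVF was 2.14 percentage points (exact p = 0.0108). Day 28 minus day 16 was 0.111 as a share of TPM. Without 1 library, PA minus IVF ranged from 0.431 to 0.956 percentage points of counts.

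With the replicate number as a block, 216 of the 226 calls were kept, and the counts for the steps were 10, 6 and 6. Deviations of same-numbered libraries correlated between -0.050 and 0.116 across pairs of groups. Whether same-numbered libraries shared a differentiation or batch is not stated, and low correlations cannot exclude it. The check of members higher in the PA line at each day under these settings was chosen after seeing the data; it gave 11 or 12. The number of libraries, 2 per group from 1 line per origin, limits all tests, and transfer RNA rows with few counts are limited by depth.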
